A study of Mus musculus with 23 samples.

Results

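Integrins, cadherins and claudins were followed through 4 mouse embryonic stem (ES) cell lines that received an activator of serum response factor targets or a control plasmid. The members were all probe sets whose single annotated gene symbol is Itga, Itgb, Cdh or Cldn followed by a number and, where present, a letter. This gave 45 of 12502 probe sets on the array, for 36 of 8132 named genes. Integrin alpha genes had 10 probe sets, integrin beta genes 9, cadherins 15 and claudins 11. The rule used names and no measured value.

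Integrins are pairs of an alpha and a beta chain that bind the extracellular matrix outside the cell and, through adaptors such as talin and vinculin, the actin cytoskeleton inside it. Cadherins bind cadherins of a neighbouring cell and are tied to actin by catenins, and claudins build the strands of tight junctions between epithelial cells. In ES cells the product of Cdh1, E-cadherin, holds the cells of a colony together, and the product of Itgb1 is the beta chain of most of their matrix receptors. Serum response factor (SRF) switches on genes of the actin cytoskeleton and of muscle, and genes that respond early to growth factors.

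The lines were wild-type E14, E99 (+/-), E81 (-/-) and E100 (-/-); which gene these genotypes refer to is not in the labels, nor is whether a line is a single clone. Each line was transfected with an empty vector, with SRFdM-VP16, which the labels call the control, or with SRF-VP16, a fusion of SRF with the activation domain of the viral protein VP16. Total RNA was collected after 72 hours. Of the 12 groups, 11 had 2 arrays and the E100 vector group had 1, giving 23 arrays. Nothing says that the duplicates were separate cultures, so each p-value reflects the spread of these samples alone, which may be technical. The share of cells that took up a plasmid was not analysed here.

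Values are intensities, the brightness of a probe set in arbitrary units, and 23.5% to 43.6% of an array's probe sets read 0 or less. Whether and how a background was subtracted is not stated. Array medians ran from 53.5 to 207. They were 53.5 and 104 on the SRFdM-VP16 arrays of E81, against 142 and 126 with SRF-VP16 in that line. Any intensity under 58, the floor, was replaced by 58 before logarithms were taken. A log2 change is therefore on the floored scale, and a gene is called when its limma p-value, adjusted over all 9643 probe sets tested, is under 0.05. Of 12 ES cell marker genes, 11 or 12 lay above the floor on every array.

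Of the 45 member probe sets, 33 passed the filter on low values and were tested, 18 of integrins and 15 of cadherins and claudins. The 12 that did not pass were 1 integrin alpha probe set (Itga8), 6 of cadherins (Cdh4 with 2 probe sets, Cdh5, Cdh8, Cdh13, Cdh16) and 5 of claudins (Cldn1 with 2 probe sets, Cldn2, Cldn5, Cldn11). Among these are Cdh5 and Cldn5, the cadherin and claudin of blood vessel endothelium. Only 19 member probe sets exceeded the floor on 12 or more arrays, 3 of integrin alpha, 8 of integrin beta, 3 of cadherin and 5 of claudin genes, against 59.6% of all probe sets without controls. Those of Itga3, Itga6, Itgb1 (2 probe sets), Itgb7, Cdh1 and Cldn4 did so on all 23. In each family the probe set with the highest mean signal was described whether or not it was called; these belong to Itga6, Itgb1, Cdh1 and Cldn4. This choice does not rank the genes, since signals of different probe sets depend on the probes.

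The sequences around the start sites of Itgb1, Cldn6 and Cldn4 are shown. Itgb1 and Cldn6 were called with SRF-VP16 in the -/- lines, as described below. Cldn4 was not called and has the highest mean signal of the claudin probe sets. RefSeq holds the promoters of all of them. RefSeq promoters (build GRCm38.p6, 250 bases before to 50 after the start) were matched for 22 of the 36 member genes, as 24 promoters; Cdh1 was not among them. Each is printed 5′ to 3′ on the strand of its gene. Capitals mark an E-box (CACCTG or its reverse CAGGTG, the letters bound by Snail and Zeb repressors) and a GC box (GGGCGG or its reverse CCGCCC, the letters bound by Sp1).
Itgb1, chr8:128685404-128685703, plus strand: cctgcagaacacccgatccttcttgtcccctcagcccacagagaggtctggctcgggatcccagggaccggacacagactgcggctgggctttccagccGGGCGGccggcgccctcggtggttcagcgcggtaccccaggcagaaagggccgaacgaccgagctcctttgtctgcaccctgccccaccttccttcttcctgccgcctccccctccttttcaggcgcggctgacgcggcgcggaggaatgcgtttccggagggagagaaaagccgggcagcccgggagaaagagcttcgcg
Cldn6, chr17:23679115-23679414, plus strand: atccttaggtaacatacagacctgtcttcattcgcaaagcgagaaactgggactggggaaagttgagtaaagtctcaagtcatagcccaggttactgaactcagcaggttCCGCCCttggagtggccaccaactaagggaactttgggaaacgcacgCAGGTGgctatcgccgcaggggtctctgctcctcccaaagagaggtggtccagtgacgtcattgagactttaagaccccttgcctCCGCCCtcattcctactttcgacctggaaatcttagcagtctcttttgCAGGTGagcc
Cldn4, chr5:134946885-134947184, minus strand: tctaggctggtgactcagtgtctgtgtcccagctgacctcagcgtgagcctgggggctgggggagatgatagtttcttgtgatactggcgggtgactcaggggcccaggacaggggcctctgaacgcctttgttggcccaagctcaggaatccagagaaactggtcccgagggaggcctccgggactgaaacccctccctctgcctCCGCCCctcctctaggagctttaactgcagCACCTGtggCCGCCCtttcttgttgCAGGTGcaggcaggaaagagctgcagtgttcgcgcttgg
The window of Itgb1 held 0 E-boxes and 1 GC box, and those of Cldn6 and Cldn4 held 2 of each; in these windows no E-box overlapped a GC box. Searched on both strands, the E-box was present in 6 of the 24 member promoters (Cldn3, Cldn4, Cldn6, Cldn7, Itga3 and Itgb5), against 20.2% of all 32851 promoters. The GC box was present in 17 of 24, against 35.7% of all. The CArG box, the sequence SRF binds, was present in 0 of the 24 windows and in 1.63% of all promoters. A match is a run of letters and not evidence of binding, and a site outside these windows would not be seen.

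In the -/- lines, SRF-VP16 raised members of both classes of adhesion gene against SRFdM-VP16. The integrin beta gene Itgb1, the cadherin Cdh1 and the claudin Cldn6 were called higher, and 0 of the 33 member probe sets were called lower. Of all probe sets tested, 2.48% were called higher, 0.342% lower and 2.82% in either direction. At an unadjusted p under 0.05, 8 members were higher and 0 lower, against 13.4% of all probe sets in either direction. The 4 SRF-VP16 arrays were each brighter than each of the 4 SRFdM-VP16 arrays for 8 member probe sets, those of Itga3, Itgb1 (2 probe sets), Cdh1, Cdh2, Cldn3, Cldn4 and Cldn6, against 4.93% of all probe sets, and each dimmer for 0, against 1.13%. In RNA of whole cultures, more cells of a kind and more RNA per cell cannot be told apart.

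**Figure D1:**
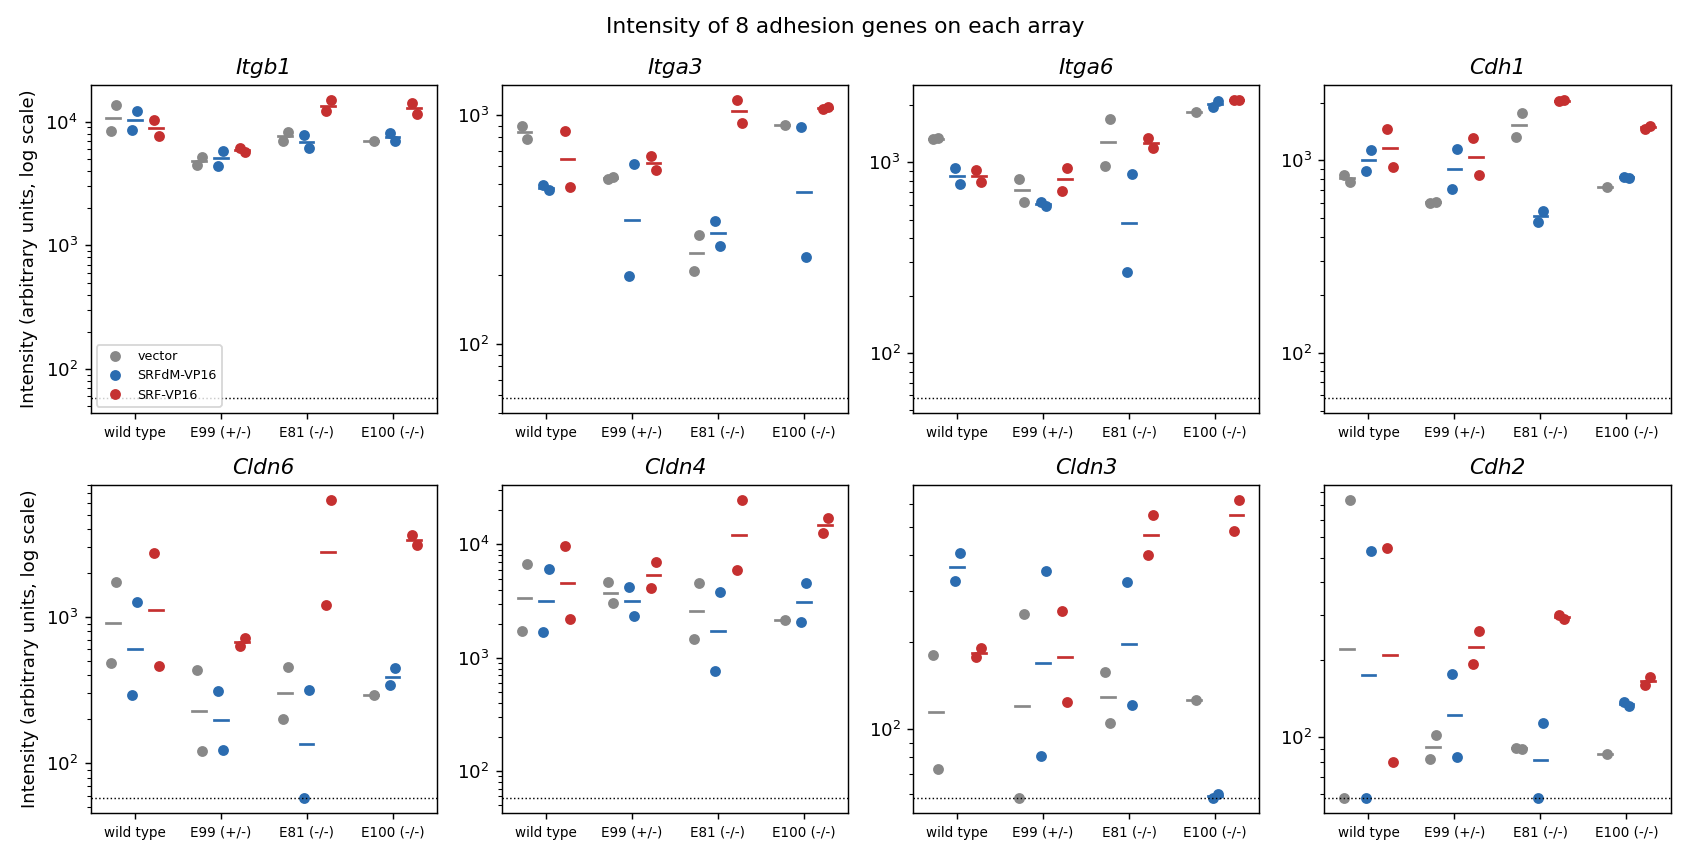
Intensity (arbitrary units, log scale) of 8 adhesion genes on each of the 23 arrays, by line, with vector in grey, SRFdM-VP16 in blue and SRF-VP16 in red. Each point is an array, values below the floor of 58 (dotted line) are drawn at the floor, and bars are group means of the log2 values. In E81 and E100 the SRF-VP16 points of Itgb1, Cdh1, Cldn6, Cldn4 and Cldn3 lie above both SRFdM-VP16 points of the same line.

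Among matrix receptors, Itgb1 had intensities of 12196 and 15056 in E81 and 14329 and 11588 in E100 with SRF-VP16. With SRFdM-VP16 they were 7757 and 6134 in E81 and 8133 and 6975 in E100. Vector gave 7035 and 8244 in E81 and 7006 in E100. Thus every SRF-VP16 array of the -/- lines exceeded every control array of those lines. The mean was 13292 ± 1663 (SD, n = 4) against 7250 ± 887 (SD, n = 4). The log2 change of the fit was 0.87 ± 0.19 (SE; adjusted p = 0.022), 1.83-fold. This probe set can hybridise to related transcripts. The other Itgb1 probe set gave a log2 change of 1.02 ± 0.32 (SE) and was not called, with an adjusted p of 0.14; its arrays also did not overlap, at 3315 to 4588 against 854 to 3256. The Itgb1 call was lost with each array divided by its median (0.49, adjusted p = 0.39) and without E81 SRFdM-VP16 replicate 2 (adjusted p = 0.05), E100 SRFdM-VP16 replicate 2 (0.089), E81 SRF-VP16 replicate 2 (0.095) or E100 SRF-VP16 replicate 1 (0.07). It was also lost in a fit on the arrays of the comparison alone (adjusted p = 0.097) and in either -/- line by itself (E81 0.11, E100 0.22).

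The integrin alpha genes gave 0 calls. Itga3, the alpha chain of a laminin receptor, came closest, with 1062 ± 100 against 434 ± 303 (SD, n = 4 each) and a log2 change of 1.50 ± 0.41 (SE; adjusted p = 0.073). Its SRF-VP16 arrays stood at 1167 and 926 in E81 and 1069 and 1088 in E100. Its SRFdM-VP16 arrays stood at 346 and 268 in E81 and at 884 and 240 in E100. Vector gave 208 and 299 in E81 and 905 in E100. The SRF-VP16 and SRFdM-VP16 groups did not overlap. In E100 the SRFdM-VP16 array at 884 and the vector array were both close to the SRF-VP16 level.

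Itga6, the other main laminin-binding alpha chain of ES cells, had 1337 and 1185 in E81 and 2129 and 2126 in E100 with SRF-VP16. With SRFdM-VP16 it had 266 and 868 in E81 and 1948 and 2089 in E100, so the groups overlapped. Vector gave 956 and 1699 in E81 and 1846 in E100. Its log2 change was 0.73 ± 0.30 (SE; adjusted p = 0.29), made up of 1.39 in E81 and 0.08 in E100. It was 0.31 without E81 SRFdM-VP16 replicate 1 and 1.16, and called (adjusted p = 0.0075), without replicate 2 of that group; against vector it was 0.09 and with division by the array median 0.35. Itga7, also a laminin-binding chain, had a log2 change of -0.33 (adjusted p = 0.89), and Itga2, a collagen-binding chain, one of 0.29 (0.71). The 3 probe sets of Itga4, which pairs with Itgb1 and Itgb7, were between -0.03 and -0.01. They exceeded the floor on only 3, 7 and 4 of the 23 arrays, so a change could be missed. Itga4 is an exception to the rule by which genes were named.

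Of the other integrin beta genes, none was called. Itgb3, the partner of the alpha-v chain in the vitronectin receptor, had a log2 change of 0.59 (adjusted p = 0.65). Itgb2l had one of 0.74 (0.59). Itgb7, a beta chain known from lymphocytes, was measured on every array by its brighter probe set, with 1264 ± 196 against 1553 ± 233 (SD, n = 4 each) and a log2 change of -0.30 (adjusted p = 0.68). The second Itgb7 probe set lay near background and had a change of opposite sign, 0.51.

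Cdh1 had 2026 and 2065 in E81 and 1455 and 1513 in E100 with SRF-VP16. SRFdM-VP16 gave 477 and 548 in E81 and 822 and 811 in E100. Vector gave 1317 and 1773 in E81 and 726 in E100. The SRF-VP16 and SRFdM-VP16 arrays were well separated, while the E81 vector arrays lay close to the SRF-VP16 level and far above the SRFdM-VP16 arrays of that line. The mean was 1765 ± 325 against 664 ± 178 (SD, n = 4 each). The log2 change of the fit was 1.43 ± 0.21 (SE; adjusted p = 0.0025), 2.70-fold. Against vector the change was 0.73 and was not called (adjusted p = 0.13). Within lines it was 2.00 in E81 (adjusted p = 0.0066) and 0.86 in E100 (0.24).

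Cdh2, the N-cadherin of neural and mesenchymal cells, had 298 and 287 in E81 and 160 and 172 in E100 with SRF-VP16. SRFdM-VP16 gave 27 and 114 in E81 and 137 and 132 in E100. These did not overlap, yet the log2 change of 1.07 ± 0.83 (SE) was not called (adjusted p = 0.66), and it was 1.85 in E81 alone, 0.30 in E100 alone and 0 with a floor at the 60th percentile. Cdh3, the P-cadherin of placenta and epithelia, had a log2 change of 1.00 ± 0.90 (SE; adjusted p = 0.72) with overlapping groups. Its E100 SRFdM-VP16 duplicates stood at 26 and 857, and the change was 0.03 without the first and 1.97 without the second. Cdh15, the M-cadherin of muscle, had one of 0.37 (0.73), and only 7 of its 23 arrays lay above the floor. Thus both Cdh1 and Cdh2, the cadherins whose exchange marks the change of epithelial into mesenchymal cells, had higher means with SRF-VP16, and only Cdh1 was called.

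Claudins showed the widest differences. Cldn6, a claudin of embryonic epithelia, had 1202 and 6339 in E81 and 3647 and 3105 in E100 with SRF-VP16. With SRFdM-VP16 it had -2 and 317 in E81 and 343 and 446 in E100. Vector gave 202 and 458 in E81 and 295 in E100. Every SRF-VP16 array exceeded every control array of these lines, and the E81 duplicates differed several-fold. The mean was 3573 ± 2121 against 276 ± 194 (SD, n = 4 each), 13.2-fold on the floored log scale, with a log2 change of 3.73 ± 0.80 (SE; adjusted p = 0.022). The change was 4.35 in E81 (adjusted p = 0.093) and 3.10 in E100 (0.25) when each line was tested alone, and 3.35 against vector (0.068). The call was also lost in a fit on the arrays of the comparison alone (adjusted p = 0.14) and on leaving out E81 SRFdM-VP16 replicate 1 (0.097), either E100 SRFdM-VP16 array (0.078 and 0.063), E81 SRF-VP16 replicate 2 (0.11) or either E100 SRF-VP16 array (0.061 and 0.051), with changes of 3.11 to 3.82.

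Cldn4, an epithelial claudin, had 5916 and 24850 in E81 and 12720 and 17106 in E100 with SRF-VP16. SRFdM-VP16 gave 767 and 3826 in E81 and 2073 and 4558 in E100. The groups did not overlap, and the E81 duplicates again stood far apart. The mean was 15148 ± 7939 against 2806 ± 1713 (SD, n = 4 each), with a log2 change of 2.54 ± 0.72 (SE) that missed the threshold (adjusted p = 0.090). Cldn3, which is closely related to Cldn4, had 400 and 548 in E81 and 484 and 619 in E100, against 321 and 121 in E81 and 20 and 60 in E100. Its log2 change of 2.23 ± 0.56 (SE) had an adjusted p of 0.051. The size depends on the line and the floor, near which both E100 controls lie: the change was 1.25 in E81 alone, 3.21 in E100 alone and 0.73 with a floor at the 60th percentile, where it was called (adjusted p = 0.0021). Cldn7 had 0.66 ± 0.95 (SE; adjusted p = 0.85) and Cldn11, the claudin of myelin and testis, 0.21 (0.86).

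Set side by side, matrix receptors and cell-cell adhesion genes each held probe sets with a wide range of changes. The median log2 change was 0.15 over the 18 integrin probe sets tested and 0.37 over the 15 of cadherins and claudins, against 0.04 over all 9643. By family it was -0.01 for integrin alpha, 0.51 for integrin beta, 0.31 for cadherin and 1.45 for claudin probe sets. A log2 change above 0.5 was seen for 7 of 18 integrin and 7 of 15 cadherin and claudin probe sets, against 19.4% of all, and one below -0.5 for 0 of either, against 10.2%. Many members lie near the floor, where a change is compressed: over the 19 probe sets above it on 12 or more arrays, the medians were 0.59 for 11 integrin and 1.25 for 8 cadherin and claudin probe sets, against 0.08 for all such probe sets. With quantile normalization the medians were 0.06 and 0.33, and with division by the array median 0.09 and 0.38, while that of all probe sets moved to -0.04 and -0.16. With a floor at the 60th percentile of all values both medians were 0, with a filter at the 60th percentile they were 0.46 and 1.43, and with an inverse hyperbolic sine instead of the floored log2 scale 0.50 and 1.11. The integrin median was 0.06 without E81 SRFdM-VP16 replicate 1, 0.10 without E81 SRF-VP16 replicate 1, 0.04 without E100 SRF-VP16 replicate 1 and 0.38 without E100 SRF-VP16 replicate 2. The cadherin and claudin median ranged from 0.21 to 0.46 when single arrays were left out. It is not given array by array, so these values do not compare the 2 medians. Their order is not firm, since it was lost with the floor at the 60th percentile. No test was made of these medians.

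**Figure D2:**
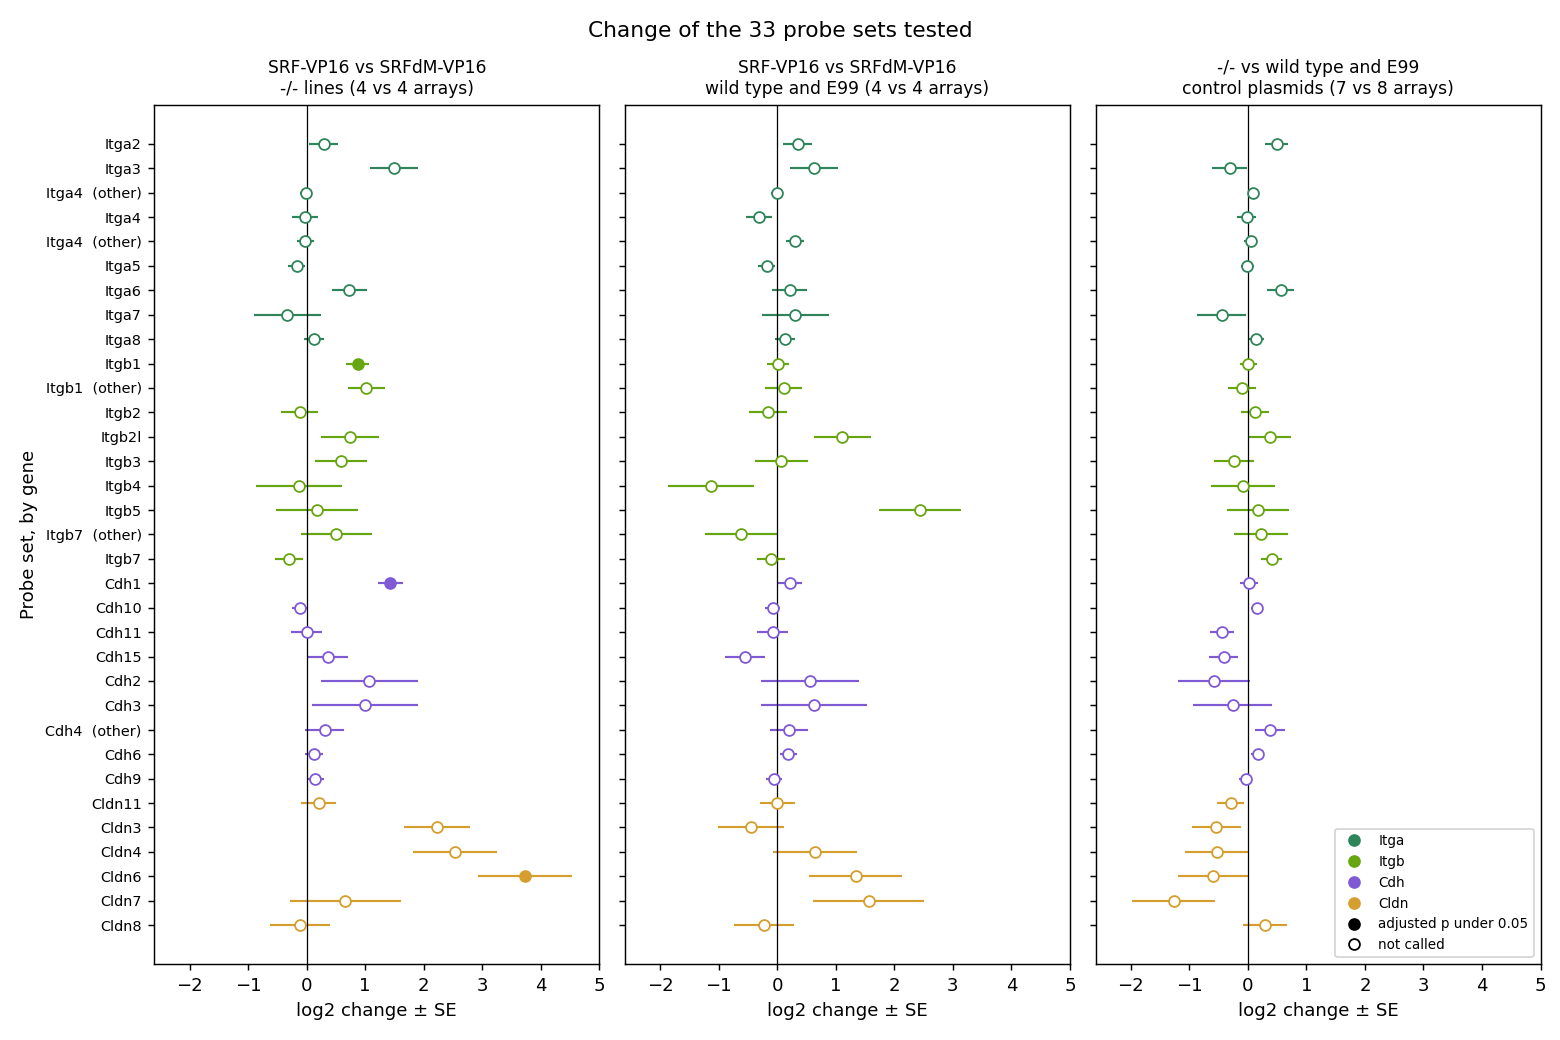
Log2 change with its standard error for the 33 member probe sets tested, in the -/- lines for SRF-VP16 over SRFdM-VP16 (4 against 4 arrays), the same in wild type and E99 (4 against 4), and -/- against wild type and E99 with control plasmids (7 against 8). Filled points are called (limma, adjusted p under 0.05), colours give the family, and "other" marks a probe set that is not the brightest of its gene. Only Itgb1, Cdh1 and Cldn6 in the -/- lines are filled.

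In wild type with E99, SRF-VP16 against SRFdM-VP16 gave 0 calls among the 33 members, against 0.0415% of all probe sets; this comparison shares no array with that in the -/- lines. At an unadjusted p under 0.05 there were 2 of the 33 members, both higher, against 6.26% of all probe sets in either direction. The median change was 0.09 for integrin and 0.19 for cadherin and claudin probe sets, against 0.10 for all. The SRF-VP16 arrays were each brighter than each SRFdM-VP16 array for 3 members (Itga2, Itgb5 and Cdh6), against 4.28% of all probe sets, and each dimmer for 0, against 0.767%. Arrays were compared here before the floor was applied. Itga2 had 41 to 127 against -48 to 9, and Cdh6 had 16 to 98 against -40 to 13. Their SRFdM-VP16 arrays all lay below the floor, and their log2 changes were 0.35 and 0.19.

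Itgb1 had 10358 and 7701 in wild type and 6166 and 5719 in E99 with SRF-VP16. SRFdM-VP16 gave 8563 and 12278 in wild type and 4402 and 5850 in E99, and vector 8497 and 13594 in wild type and 4445 and 5236 in E99. Plasmid groups overlapped, and all E99 arrays were below all wild-type arrays. The log2 change with SRF-VP16 was 0.01 ± 0.19 (SE).

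Cdh1 had 1461 and 925 in wild type and 1303 and 841 in E99 with SRF-VP16. SRFdM-VP16 gave 879 and 1138 in wild type and 709 and 1148 in E99, and vector 839 and 774 in wild type and 604 and 609 in E99. The SRF-VP16 and SRFdM-VP16 arrays overlapped in both lines, and the log2 change was 0.22 ± 0.21 (SE; adjusted p = 1.00).

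Cldn6 had 2748 and 460 in wild type and 638 and 717 in E99 with SRF-VP16. SRFdM-VP16 gave 291 and 1257 in wild type and 314 and 123 in E99, and vector 486 and 1721 in wild type and 431 and 121 in E99. In wild type the duplicates of each plasmid were several-fold apart, so the groups overlapped there, while in E99 both SRF-VP16 arrays exceeded all 4 control arrays. The log2 change over both lines was 1.34 ± 0.80 (SE; adjusted p = 0.93).

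Cldn4 had 9717 and 2181 in wild type and 4165 and 7055 in E99 with SRF-VP16, against 1680 and 6091 in wild type and 4231 and 2353 in E99 with SRFdM-VP16. The groups overlapped in both lines, with a log2 change of 0.65 ± 0.72 (SE). Cldn3 had 178 and 190 in wild type and 255 and 124 in E99, against 325 and 405 in wild type and 81 and 352 in E99. Its log2 change of -0.45 ± 0.56 (SE) was opposite in sign to that in the -/- lines, and neither was called.

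Itgb5, an integrin beta chain that pairs with the alpha-v chain, was picked out after its values were seen. It had 482 and 892 in wild type and 775 and 151 in E99 with SRF-VP16, against 37 and 121 in wild type and -42 and 143 in E99 with SRFdM-VP16. The log2 change was 2.44 ± 0.70 (SE), not called at an adjusted p of 0.34. In the -/- lines its change was 0.18 ± 0.70 (SE), with arrays from -99 to 847 under SRF-VP16.

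The effect of SRF-VP16 was then compared directly between the -/- lines and wild type with E99. Of the 33 members 0 were called, against 0.135% of all probe sets. At an unadjusted p under 0.05, 3 had a larger and 1 a smaller effect in the -/- lines, against 7.23% of all probe sets in either direction. The difference in log2 change was 0.86 ± 0.27 (SE; adjusted p = 0.32) for Itgb1, 1.22 ± 0.30 (0.17) for Cdh1, 2.39 ± 1.13 (0.71) for Cldn6, 2.68 ± 0.79 (0.29) for Cldn3 and -2.26 ± 1.00 (0.66) for Itgb5. A difference in effect between the genotypes was therefore not shown for these genes.

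Over all 4 lines, 2 members were called higher with SRF-VP16 than with SRFdM-VP16, Cdh1 and Cldn6, against 1.79% of all probe sets; this comparison shares its arrays with the preceding ones. Cdh1 had a log2 change of 0.82 ± 0.15 (SE; adjusted p = 0.013), with 0.22 in wild type, 0.21 in E99, 2.00 in E81 and 0.86 in E100. Cldn6 had 2.53 ± 0.57 (SE; adjusted p = 0.037), with 0.89, 1.78, 4.35 and 3.10 in the same order. Itgb1 was not called, at 0.44 ± 0.13 (SE; adjusted p = 0.13), with -0.20, 0.23, 0.97 and 0.77. Itga3 was higher on average than with SRFdM-VP16 in every line, by 0.42, 0.82, 1.77 and 1.23, and was not called (1.06, adjusted p = 0.088). Against vector this did not hold in wild type, with means of 842 with vector and 670 with SRF-VP16. These means were 530 and 620 in E99, 254 and 1046 in E81, and 905 (1 array) and 1078 in E100. SRFdM-VP16 differed from vector by -0.52 ± 0.30 (SE) for Itga3 over all lines.

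The Cdh1 call over all lines was lost with division by the array median (0.41, adjusted p = 0.18) and with the replicate number as a block (adjusted p = 0.051). The Cldn6 call there was lost with vector as the control (2.14, adjusted p = 0.10), with no filter (0.073), with a floor at the 60th percentile (0.061) and in a fit on the arrays of the comparison alone (0.069). It was also lost on leaving out wild-type SRFdM-VP16 replicate 1, either E99 or E100 SRFdM-VP16 array, E81 SRFdM-VP16 replicate 1, wild-type SRF-VP16 replicate 1, either E99 or E100 SRF-VP16 array, or E81 SRF-VP16 replicate 2, with adjusted p from 0.05 to 0.10.

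**Figure D3:**
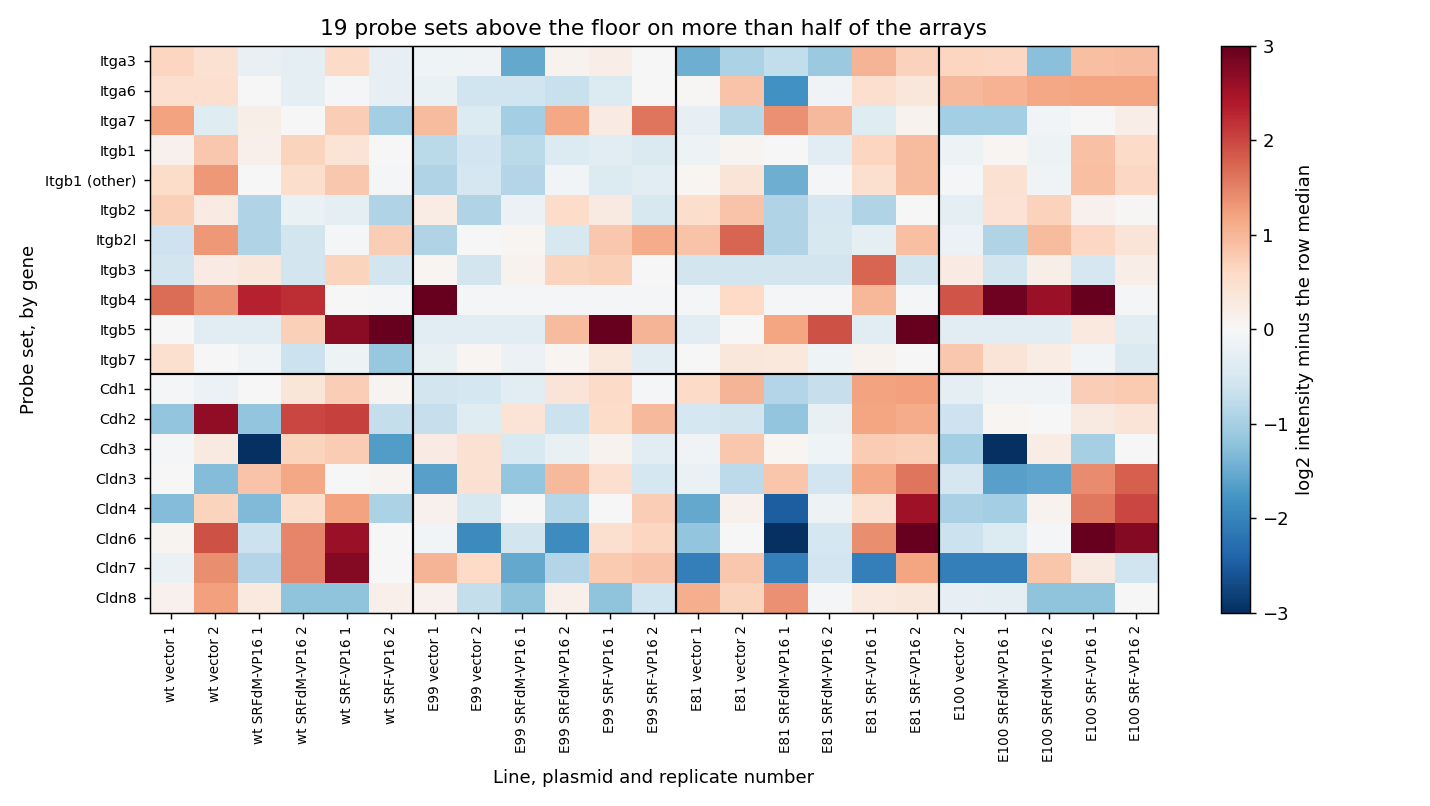
Log2 intensity minus the median of each probe set (colour, from -3 to 3) for the 19 member probe sets above the floor on 12 or more arrays, on all 23 arrays, ordered by line, plasmid and replicate number; integrins are above the horizontal line and cadherins and claudins below it. The SRF-VP16 arrays of E81 and E100 are red for Cldn6, Cldn4 and Cldn3, as are some arrays of other groups, such as wild-type SRF-VP16 replicate 1 for Cldn6 and Cldn4, and in wild type the duplicates of a plasmid differ for Cldn6, Cldn4, Cldn7 and Cdh2.

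With control plasmids alone, the -/- lines were compared with wild type and E99, 7 arrays against 8, including the SRFdM-VP16 arrays used above. No member was called, 0 of 33 against 0.228% of all probe sets, and 4 passed an unadjusted p of 0.05, against 8.71% of all. The median difference was 0.06 for integrin probe sets, -0.29 for cadherin and claudin probe sets and -0.54 for claudins, against 0.12 for all. A difference below -0.5 was seen for 0 of 18 integrin and 5 of 15 cadherin and claudin probe sets, against 2.56% of all. The integrin median changed sign with quantile normalization (-0.04) and division by the array median (-0.03), while that of cadherins and claudins was -0.42 and -0.38. With a floor at the 60th percentile both medians were 0.

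Because the SRFdM-VP16 arrays of the -/- lines enter this comparison and the SRF-VP16 comparison on opposite sides, low values on them act on both, and no relation between the comparisons is read. Cldn6 had a mean of 294 ± 158 (SD, n = 7) in the -/- lines and 593 ± 581 (SD, n = 8) in wild type and E99. Cldn4 had 2776 ± 1542 (SD, n = 7) and 3803 ± 1930 (SD, n = 8). Cldn7 showed the widest difference, -1.27 ± 0.71 (SE; adjusted p = 0.68), with 111 ± 231 (SD, n = 7) and 339 ± 235 (SD, n = 8). Cdh1 stood at 925 ± 462 (SD, n = 7) and 837 ± 212 (SD, n = 8), a log2 difference of 0.02. Itgb1 stood at 7326 ± 754 (SD, n = 7) and 7858 ± 3542 (SD, n = 8), a log2 difference of 0.01. The second Itgb1 mean joins unlike lines, with 8497 to 13594 in wild type and 4402 to 5850 in E99. The -/- arrays lay between these, at 6134 to 8244. Itga6 was the integrin with the widest difference, 1382 ± 686 (SD, n = 7) against 878 ± 302 (SD, n = 8) and 0.56 ± 0.23 (SE; adjusted p = 0.49).

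The -/- lines were also compared with each other under control plasmids. No member was called in E81 against E100, against 0.788% of all probe sets. At an unadjusted p under 0.05, 7 of 33 members passed (1 higher and 6 lower in E81), against 13.7% of all probe sets in either direction. Itga6 had 956, 1699, 266 and 868 in E81 and 1846, 1948 and 2089 in E100, without overlap, and a log2 difference of -1.30 ± 0.34 (SE; adjusted p = 0.11). The difference was -0.92 with quantile normalization (adjusted p = 0.24) and -0.61 with division by the array median (0.34). Itgb4, the partner of Itga6 in hemidesmosomes, had -199 ± 224 (SD, n = 4) in E81 and 340 ± 114 (SD, n = 3) in E100, also without overlap (-2.19 ± 0.82, SE; adjusted p = 0.25). Cldn8 ran the other way, with 242 ± 93.0 (SD, n = 4) against 93.7 ± 31.8 (SD, n = 3). Itgb4 and Cldn8 were picked out because their arrays did not overlap, which held for 1 member higher in E81, against 0.996% of all probe sets, and for 4 lower (Itga6, Itga8, Itgb4, Cldn11), against 8.47%. The tested probe sets of Itga8 and Cldn11 each exceeded the floor on only 7 of the 23 arrays. The median difference was -0.28 for integrins and -0.01 for cadherins and claudins, and that of all probe sets was -0.27 as deposited, 0.01 with quantile normalization and 0.20 with division by the array median.

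SRFdM-VP16 against vector over all lines also gave 0 member calls, against 0.799% of all probe sets. At an unadjusted p under 0.05 there were 4 of 33 members, all lower, against 13.9% of all probe sets in either direction. The median difference was -0.19 for integrins and -0.13 for cadherins and claudins, against -0.20 for all probe sets, a shift that became 0.01 with quantile normalization and 0.25 with division by the array median. Cdh1 differed by -0.13, Itgb1 by -0.01 and Cldn6 by -0.39 between the control plasmids. The Cdh1 average covers lines that differed in direction. In E81 its mean was 512 with SRFdM-VP16 and 1545 with vector. It was 1008 and 806 in wild type, 928 and 606 in E99, and 816 and 726 (1 vector array) in E100.

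Genes of the same adhesion systems outside the families were described from lists chosen by function. Of 14 measured integrin adaptors, 3 rose with SRF-VP16 in the -/- lines. These were Vcl (vinculin), with a log2 change of 3.92 ± 0.60 (SE; adjusted p = 0.0028), Actn1 (alpha-actinin), with 1.48 ± 0.26 (0.0073), and Ilk (integrin-linked kinase), with 1.59 ± 0.33 (0.017). None of the adaptors fell, and their median was 0.71, against 2.48% of all probe sets called higher and a median of 0.04. Of 4 measured integrin genes named by a letter, 0 were called, with a median of 0.11; Itgav, the alpha-v chain, had 1.30 ± 0.46 (SE; adjusted p = 0.20). Of 14 measured matrix ligands of integrins, 3 rose and 0 fell, with a median of 0.24, against the same 2.48% higher and 0.342% lower of all probe sets and their median of 0.04. The collagen IV chains Col4a1 and Col4a2 of basement membranes rose by 2.68 ± 0.55 and 1.86 ± 0.45 (SE; adjusted p = 0.017 and 0.045), and the laminin chain Lama4 by 2.02 ± 0.37 (0.009). The fibronectin gene Fn1 had -0.75 (adjusted p = 0.53).

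On the cell-cell side, 0 of 6 measured catenin genes that bind cadherins were called, with a median of 0.65; the catenin gene Jup (plakoglobin) had 0.92 ± 0.25 (SE; adjusted p = 0.076). Of 13 other junction genes, 1 rose and 0 fell, with a median of 0.25, again beside 2.48% higher and 0.342% lower of all and a median of 0.04. This was the desmosome gene Dsp (desmoplakin), with 3.39 ± 0.66 (SE; adjusted p = 0.012). The tight-junction genes Tjp1 and Ocln had 0.98 (adjusted p = 0.26) and 0.25 (0.90). Of 6 measured regulators of the switch from epithelial to mesenchymal cadherins, 0 were called, with a median of 0.45, Snai2 at 0.40 and Zeb1 at 0.50. In wild type and E99, and between genotypes under control plasmids, none of these lists held a call.

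Summed markers of other cell types were also set beside the -/- comparison. The summed intensity of 10 primitive endoderm genes, a cell type that ES cells can form, was 7205 to 13262 with SRF-VP16 and 2726 to 6383 with SRFdM-VP16, and 0 of 8 tested were called. A sum follows its brightest genes, and the median log2 change of those 8 was 0.20, against 0.21 in wild type and E99. Sparc had the widest change among them (2.11, adjusted p = 0.051), while Ttr, Afp, Sox17 and Hnf4a had means below 0. The sum of 8 trophoblast genes was 2244 to 4364 against 651 to 1577, with Krt7 and Tpbpa called higher among 6 tested and Elf5 and Hand1 below 0. The median log2 change of those 6 was 0.69, and 2.48% of all probe sets were called higher. The sum of 12 ES cell genes was 38917 to 66393 against 55901 to 109426. Among these 12, Fgf4 was called lower, against 0.342% of all probe sets, and the median was -0.54. Fibroblast (353 to 658 against 106 to 602), leukocyte (1507 to 2899 against 2315 to 3005) and endothelial genes (985 to 1251 against 395 to 2635) overlapped, with 0 called; the fibroblast gene Col1a2 had a mean below 0. Lamb1 is in both the primitive endoderm and the matrix ligand lists. In wild type and E99 the primitive endoderm sum was 3819 to 7583 against 2489 to 5531 and the trophoblast sum 893 to 2027 against 699 to 1531. The part of these cell types in the changes of Itgb1, Cdh1 and the claudins was not tested.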

How the data were processed

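Total RNA of 23 samples in 12 groups was measured on arrays. The authors deposited a linear intensity for each probe set on each array. Software, background subtraction and scaling are not stated, and the intensities were used as deposited. The number of arrays limits the precision. Control probe sets (66) were left out, and 9643 probe sets above the 40th percentile of their array in at least 2 arrays were kept. Values below 58, the 40th percentile of all values, were set to that floor before log2. A mean per group was fitted over all arrays with limma 3.58.1 in R 4.3.3 (11 residual degrees of freedom, variances moderated along the intensity), with two-sided tests and Benjamini-Hochberg adjustment at 5% over all probe sets tested. The procedure was also run on simulated data. Probe sets were named from the platform annotation (10141 with 1 symbol, 362 with several, 1933 with none), and updating symbols to GRCm38.p6 changed 0. Correlations between duplicates were 0.881 to 0.947, and 0 pairs of arrays were identical.

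Named genes were those called in a comparison, the brightest of each family, and up to 3 others per family by the size of the change in the -/- lines; exceptions are stated. A gene is described by its brightest probe set. The members, gene lists and tests were chosen with earlier results of these data known. Alternatives covered scaling, floor, transformation, filter, variance trend, replicate block, the arrays fitted, the control plasmid, single lines and leaving out each array.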

Additional observations from a re-analysis of the deposited data

Results flagged for a closer look

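In 36 sets of 4 arrays, covering 9 genes, 3 sets held an array that stood apart from the other 3 by more than Dixon's 95% limit. Chance gives about 1 in 20 such sets. Cldn6 stood at 2748 on wild-type SRF-VP16 replicate 1, against 460 to 717 on the other SRF-VP16 arrays of wild type and E99. Cldn6 also stood at 1257 on wild-type SRFdM-VP16 replicate 2, against 123 to 314 on the other SRFdM-VP16 arrays of wild type and E99. Itga3 stood at 884 on E100 SRFdM-VP16 replicate 1, against 240 to 346 on the other SRFdM-VP16 arrays of the -/- lines.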

How the results depend on the processing

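In the -/- lines the count of 3 members called for SRF-VP16 against SRFdM-VP16 became 5 with a floor at the 60th percentile, 6 with a filter at the 60th percentile, 5 with both control plasmids pooled, 1 with vector as the control, 1 in a fit on the arrays of the comparison alone, 1 with E81 as the only -/- line and 0 with E100 as the only one. It ranged from 1 to 5 when single arrays were left out. In wild type and E99 the count of 0 became 1 in a fit on the arrays of the comparison alone, and was 0 without any single array. Over all lines the count of 2 became 1 with division by the array median, a floor at the 60th percentile, no filter, the replicate block, vector as the control or only the arrays of the comparison, and ranged from 1 to 3 when single arrays were left out. The difference between genotypes in the SRF-VP16 effect gave 1 with a floor at the 60th percentile. E81 against E100 gave 2 with only its own arrays and 1 with SRFdM-VP16 alone, and SRFdM-VP16 against vector gave 1 with an inverse hyperbolic sine and 1 with only its own arrays; each ranged from 0 to 1 when single arrays were left out. The share of all probe sets called in each setting is not given here. These counts therefore do not show whether members moved apart from the other probe sets. The cause of these changes was not tested. The log2 change of Cdh2 in the -/- lines was 0 with a floor at the 60th percentile, where it lost its sign.

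Cdh1 was called in the -/- lines in 34 of 36 other settings, Itgb1 in 28 and Cldn6 in 26. Cldn3 passed the threshold in 9, Itga3 in 4, Cldn4 in 3 and Itga6 in 1. The settings include leaving out each of the 23 arrays, of which only 4 against 4 belong to this comparison. The rest act on it through the shared spread alone, so the counts overstate how firm the calls are. For Itgb1 and Cldn6, each call lost on leaving out an array was lost with an array of the comparison. Same-numbered arrays deviated together in the -/- lines (correlations 0.25 to 0.31) and, between vector and SRFdM-VP16, in wild type (0.42) and E99 (0.32), but oppositely between SRF-VP16 and the controls in wild type and E99 (-0.35 to -0.25), so the replicate numbers were not taken to pair the arrays. With the replicate block 3 members were called in the -/- lines, 1 over all lines and 0 in the other comparisons, and with the numbers crossed in wild type and E99, an alternative chosen after seeing the data, 0. Signal near background limits the families: 14 of the 33 member probe sets tested did not exceed the floor on 12 or more arrays, so changes in these could be missed.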
